A study of Mus musculus with 18 samples.

Results

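The genes described here belong to the unfolded protein response and the integrated stress response, the programs that cells run when proteins misfold in the endoplasmic reticulum (ER) or when translation is checked through the factor eIF2. The members were a list of 50 named genes, matched by symbol to the 55401 genes counted. Of these, 48 were kept, and Derl3 and Stc2, with fewer than 3 counts in every library, were dropped. The kept genes fell into 14 ER chaperones and folding enzymes, 6 of 7 genes of ER-associated degradation (ERAD), 6 sensors and regulators, and 22 of 23 targets of the transcription factor ATF4.

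In the unfolded protein response, the ER membrane sensors IRE1 (Ern1), ATF6 and PERK (Eif2ak3) are held inactive by the chaperone BiP (Hspa5) and are released when unfolded proteins bind it. IRE1 splices the Xbp1 message and ATF6 is cut to a transcription factor, and both then raise chaperone and ERAD genes, while PERK phosphorylates eIF2. Phosphorylated eIF2 lowers general translation and favours translation of ATF4, which switches on genes for amino acid synthesis and transport and for loading of transfer RNAs, and kinases other than PERK reach ATF4 without any ER stress. In macrophages, LPS and cytokine secretion load the same ER, and Toll-like receptor signals are known to engage IRE1 and XBP1.

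RNA was sequenced in 18 libraries of 6 groups, 3 per group. All were exposed to 5 ng/ml lipopolysaccharide (LPS, from the outer membrane of bacteria) for 6 h, so no group was unstimulated. Peritoneal macrophages of C57BL/6J mice were wild type (WT) or carried a mutated Smim30 gene (Mut). Mut macrophages were also given a control adenovirus (Mut AdCtrl) or one that carries Smim30 (Mut AdSmim30), added 6 h after seeding and kept for 24 h before LPS. The other pair of groups was IC-21, an established C57BL/6J line of peritoneal macrophage origin, given either a control siRNA (IC-21 siCtrl) or one against Smim30 (IC-21 siSmim30) for 24 h, with LPS added after that. The labels give neither the kind of mutation, nor ages, nor whether the triplicates came from different mice or cultures, and the spread that the tests below measure may therefore be technical.

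Libraries held 6855245 to 13456857 assigned read pairs, and 3 counts, the floor used here, were worth 0.223 to 0.438 CPM (counts scaled to each library's total), which covers counting error only. Smim30, listed as 2610001J05Rik, was at 44.3, 50.9 and 49.3 CPM in WT and 42.3, 52.9 and 51.0 in Mut (log2 difference 0.01, adjusted p = 0.966), so its RNA level does not check the label Mut. It rose by 0.28 on the log2 scale with the Smim30 virus (edgeR quasi-likelihood test with Benjamini-Hochberg adjustment, adjusted p = 0.0052) and fell by 0.97 with the siRNA (adjusted p = 6.17e-08). By the same test Smim30 was also lower in IC-21 siCtrl than in WT (log2 difference -1.88, adjusted p = 1.22e-24). It was slightly lower in Mut AdCtrl than in Mut (log2 difference -0.19, adjusted p = 0.0418). The 6 macrophage markers summed to 9640 to 11661 CPM in the peritoneal groups and 2788 to 2983 in IC-21, and T cell markers to at most 0.212 CPM in any group. In bulk RNA, fewer cells of a type and less RNA per cell cannot be told apart. Fold changes below are from edgeR fits to the 6 libraries of each comparison, and CPM are scaled to each library's total only, so where composition differs a ratio of CPM is not the fitted fold.

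The promoters of the ER and the ATF4 members carried different sequence elements, and these are shown first because they describe the classes without using the counts. The elements with matches are the ER stress response element (ERSE: CCAAT, 9 bases, CCACG), which ATF6 and NF-Y are known to bind, and the CCAAT/enhancer binding protein and ATF response element (CARE: TGATGNAA), which ATF4 binds with C/EBP partners. A promoter window of 300 bases, from 250 before to 50 after the annotated start in RefSeq (GRCm38.p6), was found for 41 of the 48 genes, and both strands were searched. Capitals mark the fixed letters of each match. All stretches are written along the gene's strand, and those of Hspa5 and Asns are kept to 30 bases because the gene models used for counting start further upstream.
Hspa5, chr2:34772019-34772048, plus strand: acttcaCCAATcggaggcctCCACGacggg
Hsp90b1, chr10:86705510-86705686, minus strand: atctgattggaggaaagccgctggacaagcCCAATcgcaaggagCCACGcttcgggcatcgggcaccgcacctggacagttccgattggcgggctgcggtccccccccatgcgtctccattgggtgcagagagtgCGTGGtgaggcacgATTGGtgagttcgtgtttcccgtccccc
Calr, chr8:84847045-84847123, minus strand: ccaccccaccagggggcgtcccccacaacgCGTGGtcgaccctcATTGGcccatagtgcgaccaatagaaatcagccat
Syvn1, chr19:6046502-6046575, plus strand: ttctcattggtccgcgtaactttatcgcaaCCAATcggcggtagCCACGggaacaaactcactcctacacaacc
Asns, chr6:7693214-7693243, minus strand: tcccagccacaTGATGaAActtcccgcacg
Chac1, chr2:119351019-119351086, plus strand: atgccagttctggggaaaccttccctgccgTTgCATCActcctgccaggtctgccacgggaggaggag
Herpud1, chr8:94386287-94386354, plus strand: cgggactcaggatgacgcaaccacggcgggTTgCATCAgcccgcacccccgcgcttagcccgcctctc

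The first 4 stretches hold an ERSE and the last 3 a CARE, and they were chosen to show both elements in chaperone, ERAD and ATF4 target genes: Hspa5 (BiP), Hsp90b1 (GRP94) and Calr (calreticulin) are the abundant chaperones, Syvn1 the ERAD ubiquitin ligase HRD1, Asns asparagine synthetase, Chac1 a glutathione-degrading enzyme and Herpud1 an ERAD adaptor. An ERSE lay in the window of 7 of 12 chaperone and folding genes (58.3%), among them Canx, Creld2, Dnajc3 and Pdia6, and of 1 of 5 ERAD genes, against 0.137% of the 27025 genes with a window. None of the 19 ATF4 targets with a window and none of the 5 regulators held one. A CARE lay in 7 of the 19 ATF4 targets (36.8%: Aars, Asns, Chac1, Gars, Nupr1, Trib3 and Vldlr), in 1 of 5 ERAD genes, and in 0 of 12 chaperone genes, against 4.51% of all genes. The element TGACGTGG, known as the unfolded protein response element, was found in no member's window and in 0.714% of all genes. These matches describe the letters of these windows and not binding. The classes were listed by what is known of the genes, such as being targets of ATF4, so the shares are not independent of that listing.

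**Figure D1:**
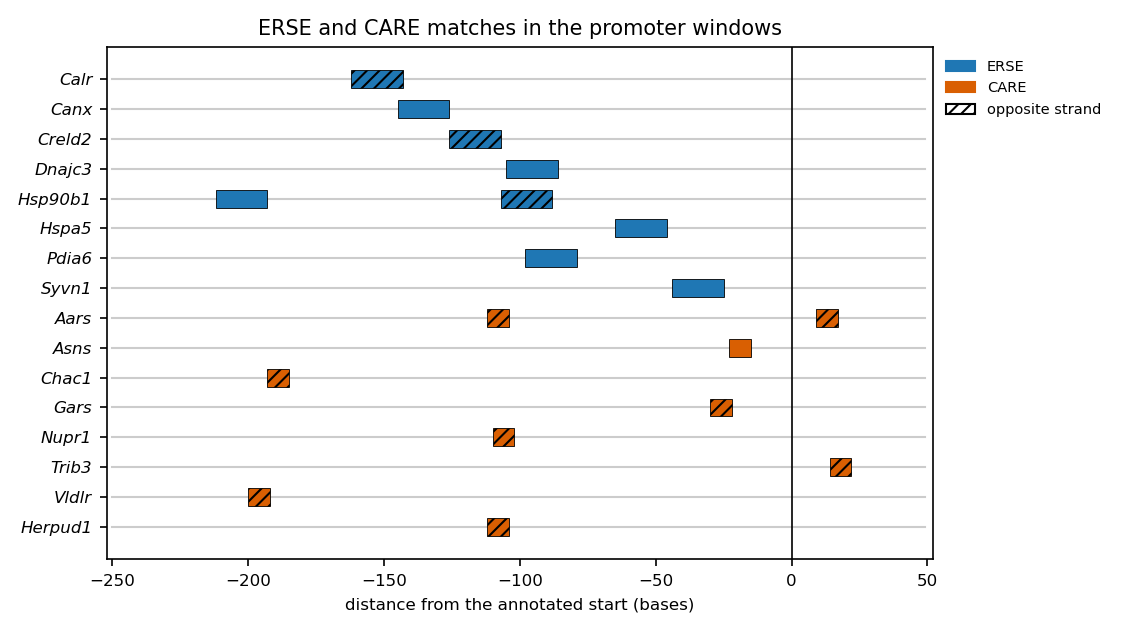
Position of each ERSE (blue) and CARE (orange) match in the window of each gene with a match, as distance in bases from the annotated start (vertical line), with hatching for matches on the opposite strand. Hsp90b1 held 2 ERSE matches, and the CARE of Trib3 and the second of Aars lay after the start.

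By length-corrected level (CPM per kilobase of counted exon), Cebpb, a C/EBP transcription factor that is also induced by LPS, ranked first of the 50 listed genes in all 6 groups, at 391 in WT and 390 in IC-21 siCtrl. Calr ranked second in the 4 peritoneal groups, at 308 CPM per kilobase in WT, and 8th in IC-21 siCtrl, at 143. Atf4 ranked 6th in WT, at 123 CPM per kilobase, and second in IC-21 siCtrl, at 322. Trib3, a pseudokinase that ATF4 induces, stood 40th in WT at 5.24 and 9th in IC-21 siCtrl at 117 CPM per kilobase. Vldlr, the very low density lipoprotein receptor, was at 0.776 CPM or less in every library and had 0 counts in all 6 IC-21 libraries.

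In Mut against WT, every member called by edgeR lay in the ATF4 class. Of 46 members tested, 5 were higher and 1 lower in Mut, all 6 of them ATF4 targets: the amino acid and folate enzymes Asns, Psat1, Phgdh and Mthfd2 and the tryptophanyl-tRNA synthetase Wars were higher by 1.19- to 1.51-fold, and the secreted stress factor Gdf15 was 1.35-fold lower. The 6 calls are 13% of the tested members, against 6.30% of the 12500 genes tested (3.68% higher and 2.62% lower). None of 14 chaperone and folding genes, 6 ERAD genes or 6 regulators was called by edgeR, with 1, 1 and 0 of them at an unadjusted p under 0.05. DESeq2 and limma-voom called none of the 20 chaperone and ERAD genes either. The median log2 difference was 0.20 over the 20 ATF4 targets tested, -0.0035 over the chaperones, -0.088 over ERAD genes and -0.0057 over all genes.

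Asns, which makes asparagine, was at 14.5, 15.5 and 15.7 CPM in WT and 23.4, 23.4 and 22.7 CPM in Mut. All 3 Mut libraries stood above all 3 WT libraries, a log2 difference of 0.59 (SE 0.11, adjusted p = 0.000409). Mthfd2, the mitochondrial enzyme that passes on folate-bound one-carbon units, was at 48.7, 50.2 and 47.6 CPM in WT and 69.5, 69.2 and 74.7 in Mut, also with no overlap (log2 difference 0.54, SE 0.067, adjusted p = 1.77e-06). The serine pathway enzymes Phgdh and Psat1 catalyse its first and second step. Psat1 was at 17.3, 19.2 and 16.5 CPM in WT and 24.0, 27.4 and 24.3 in Mut (log2 difference 0.51, SE 0.11, adjusted p = 0.0021). Phgdh was at 9.34, 11.5 and 9.55 CPM in WT and 16.9, 13.7 and 13.1 in Mut (log2 difference 0.51, SE 0.14, adjusted p = 0.0228). Both pairs of groups were separate, but the Phgdh call was lost with DESeq2 and without either replicate 1, WT replicate 3 or Mut replicate 2 (highest adjusted p 0.149). Psph, the last enzyme of that pathway, was at 1.91 to 4.22 CPM in WT and 2.61 to 4.43 in Mut and was not called.

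Wars was at 79.0, 87.2 and 83.3 CPM in WT and 109, 94.6 and 95.9 in Mut, with Mut replicate 1 highest (log2 difference 0.25, SE 0.065, adjusted p = 0.0148). The groups did not overlap, and the call was lost without WT replicate 1 or Mut replicate 1 (highest adjusted p 0.118). Gdf15, a cytokine of the TGF-beta family and a common stress marker, went the other way, from 202, 211 and 201 CPM in WT to 151, 143 and 164 in Mut (log2 difference -0.43, SE 0.054, adjusted p = 1.71e-06). Its groups stood apart, and it is the single called member with the opposite sign. Of 17 further ATF4 targets tested, given below, 2 were higher and 2 lower, where 3.68% of all genes tested were higher and 2.62% lower. Trib3, at 9.66, 11.6 and 12.1 CPM in WT and 12.2, 15.5 and 17.1 in Mut, missed the threshold (log2 difference 0.42, SE 0.14, adjusted p = 0.068). Its groups were separate by a narrow margin, with Mut replicate 1 just above WT replicate 3. It was called without Mut replicate 1 and in a single fit of all 18 libraries (lowest adjusted p 0.00366).

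None of the 6 sensors and regulators was called by edgeR. Atf4 itself was at 289, 279 and 299.6 CPM in WT and 303, 304 and 299.7 in Mut (log2 difference 0.05, SE 0.047, adjusted p = 0.624), and its groups overlapped. ATF4 is controlled mainly by translation, which RNA levels do not show. Ddit3 (CHOP), the factor linked to death under lasting ER stress, was at 12.8 to 13.5 CPM in WT and 11.6 to 14.7 in Mut (adjusted p = 0.882). Ppp1r15a (GADD34), which returns eIF2 to its active state, had 114 to 128 CPM in WT and 108 to 116 in Mut, with a log2 difference of -0.11 (adjusted p = 0.365). Xbp1 had 127 to 137 and 131 to 144 CPM (adjusted p = 0.73), Atf6 88.2 to 90.5 and 79.4 to 90.9 (adjusted p = 0.644), and Ern1 87.2 to 98.6 and 80.2 to 87.6 (adjusted p = 0.302). Gene counts do not separate spliced from unspliced Xbp1. Chac1, at 6.56 to 7.05 CPM in WT and 6.54 to 8.90 in Mut, and Ddit4 (REDD1, an inhibitor of mTORC1), at 2.34 to 3.21 and 2.99 to 3.59, were not called.

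The chaperone differences between the genotypes were small. Hspa5, the chaperone that rises with ER stress in most cells, was at 709, 733 and 773 CPM in WT and 764, 742 and 757 in Mut, and the groups overlapped (log2 difference 0.02, SE 0.046, adjusted p = 0.878). Hsp90b1 was at 460 to 498 and 478 to 517 CPM (log2 difference 0.05, SE 0.048), and Calr at 861 to 919 and 862 to 921 (log2 difference -0.01, SE 0.045). Over the 14 genes, the log2 differences ran from -0.15 for Hyou1, a large ER chaperone (adjusted p = 0.0644), to 0.11. Hyou1 was called lower without WT replicate 1, without Mut replicate 3 and in a single fit of all 18 libraries.

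Several measured features moved with the same groups. Asns lies on chromosome 6, 6.19 Mb from Smim30, and of 94 genes tested within 20 Mb of Smim30 8 were higher and 0 lower in Mut, where 3.68% of all genes tested were higher and 2.62% lower. Mthfd2 lies on the same chromosome at 69.4 Mb, whereas Psat1, Phgdh, Wars and Gdf15 lie on other chromosomes. The 8 markers of large peritoneal macrophages summed to 272 to 281 CPM in WT and 166 to 183 in Mut, with 2 of 5 tested members lower and none at 0. The 5 dendritic cell markers summed to 11.6 to 12.5 CPM in WT and 22.8 to 29.4 in Mut, with 2 of 3 tested members higher, and the 7 B cell markers to 83.6 to 93.3 and 61.7 to 64.4 CPM. Ribosomal RNA genes took 1.74 to 2.49% of counts in WT and 0.399 to 1.03% in Mut. The part of the position, of these cells and of the ribosomal share in the ATF4 target differences was not tested. Without the ribosomal RNA genes the count of members called was again 6. Leaving out genes with at most 2.49% of counts cannot show whether libraries that differ in this share also differ otherwise.

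**Figure D2:**
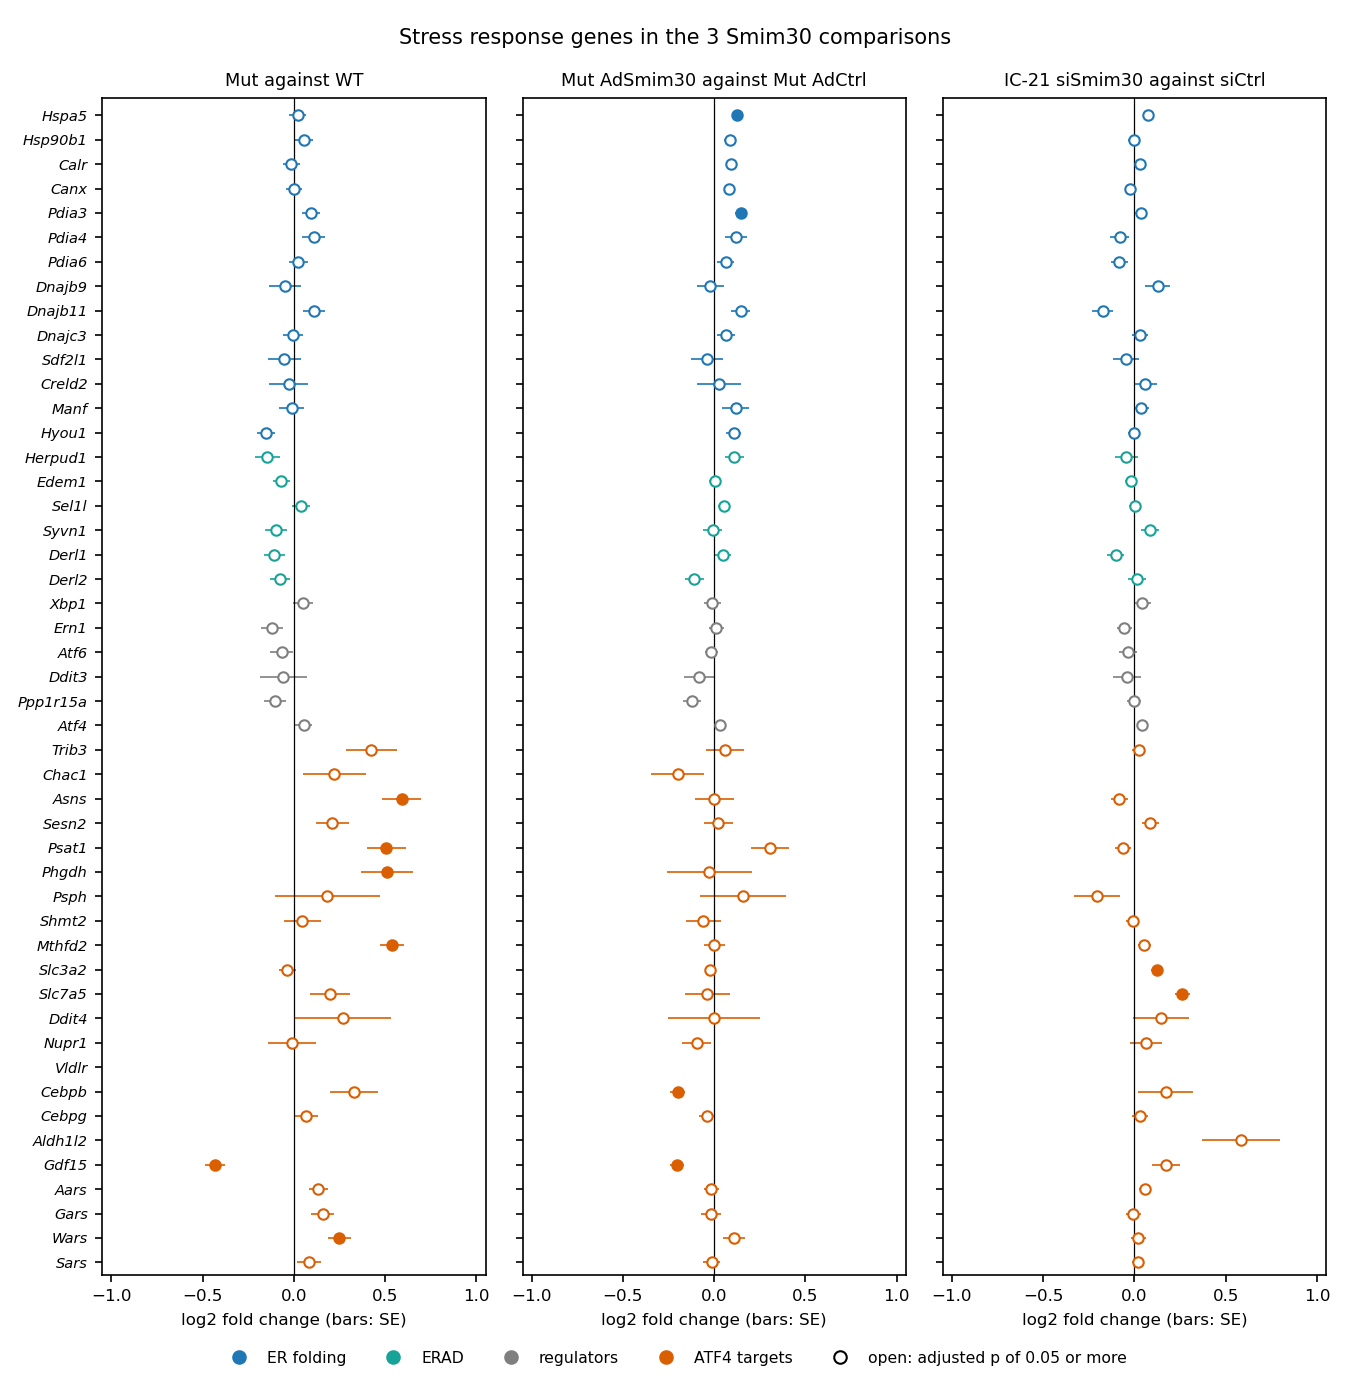
Log2 fold change (points, with standard error bars from the fit) of each tested member for the mutation (Mut over WT), the Smim30 virus (over the control virus) and the siRNA (over the control siRNA), coloured by class, with filled points for adjusted p under 0.05. In the left panel the 6 filled points are ATF4 targets, and in the middle and right panels 4 and 2 points are filled, each within 0.3 of 0.

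Among the other genes of the pathways, from further lists with 93 matched genes, 3 of 89 tested were higher and 2 lower in Mut. Over all 12500 genes tested, 3.68% were higher and 2.62% lower, so the further lists were not called more often than genes of any kind. Eif2ak2 (PKR), an eIF2 kinase that interferon induces, was the single called gene of 17 kinases, eIF2B subunits and further sensors, with a log2 difference of 0.38 (adjusted p = 0.000479). Eif2ak3 (PERK) and Eif2ak4 (GCN2, the amino acid sensor) had log2 differences of -0.01 each (adjusted p = 0.975 and 0.966). Of 17 further ATF4 targets tested, Atf3 (0.40, adjusted p = 1.05e-06) and the mitochondrial enzyme Pck2 (0.46, adjusted p = 0.0191) were higher, and the cystine transporter Slc7a11 (-0.18, adjusted p = 0.0155) and Vegfa (-0.39, adjusted p = 0.0421) lower. None of 18 ER translocation genes, 20 oxidative folding genes and 17 further ERAD genes was called by edgeR.

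Smim30 virus in Mut macrophages went with small differences in 4 members. In Mut AdSmim30 against Mut AdCtrl, the chaperones Hspa5 and Pdia3 rose by 1.09- and 1.11-fold, and the ATF4 class members Gdf15 and Cebpb fell by 1.15-fold each. These 4 are 8.7% of the 46 members tested, against 1.43% of 12701 genes (0.583% higher and 0.842% lower). No ERAD gene or regulator was called, and of the amino acid enzymes that were higher in Mut against WT none was called here. In Mut AdCtrl these enzymes no longer stood at the Mut level. Asns had a mean of 16.2 CPM (15.2 in WT and 23.2 in Mut) and Mthfd2 52.4 (48.8 and 71.1). Psat1 and Phgdh, at means of 14.5 and 3.20 CPM, were below WT (17.7 and 10.1). This comparison therefore cannot show whether added Smim30 lowers them from the Mut level. The median log2 difference was 0.090 over the 14 chaperones, 12 of them above 0, -0.018 over 20 ATF4 targets and 0.0002 over all genes.

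Hspa5 was at 443, 447 and 445 CPM with the control virus and 476, 496 and 478 with the Smim30 virus, with no overlap (log2 difference 0.12, SE 0.028, adjusted p = 0.0067). Pdia3, the disulfide isomerase that works with calreticulin and calnexin, was at 251, 255 and 254 CPM with the control virus and 281, 280 and 277 with Smim30 (log2 difference 0.14, SE 0.032, adjusted p = 0.00478). Calr, at 550 to 570 and 589 to 607 CPM, missed the threshold at adjusted p = 0.053, and Hsp90b1, at 303 to 309 and 312 to 332 CPM, at adjusted p = 0.21. The groups of both genes were also separate, whereas those of Sdf2l1, Creld2 and Dnajb9 overlapped. Calr was called with limma-voom, with a filter of 1 CPM in 3 libraries and with a replicate block (lowest adjusted p 0.0279). The Hspa5 call was lost with DESeq2 and without Mut AdSmim30 replicate 2 or 3 (highest adjusted p 0.199). In a single fit of all 18 libraries, of the 4 calls only that of Gdf15 was kept.

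Gdf15 was at 312, 306 and 272 CPM with the control virus and 253, 262 and 257 with Smim30 (log2 difference -0.20, SE 0.038, adjusted p = 0.00237). The groups did not overlap, with AdCtrl replicate 3 closest to the others, and the call was lost without Mut AdSmim30 replicate 3 (adjusted p 0.067). Gdf15 was therefore lower both in Mut against WT and with added Smim30 in Mut. Cebpb was at 462, 457 and 430 CPM and then 406, 405 and 361 (log2 difference -0.20, SE 0.040, adjusted p = 0.0138), a call that was lost without Mut AdCtrl replicate 1 or 2 (highest adjusted p over all settings 0.765). In Mut against WT, Cebpb had 501 to 688 CPM in WT and 682 to 780 in Mut and was not called, except without a filter on low counts and without WT replicate 1.

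Asns stood at 15.3 to 17.7 CPM with the control virus and 14.2 to 18.4 with Smim30, with a log2 difference of 0.00 (SE 0.11, adjusted p = 0.999). Psat1, at 13.2, 15.3 and 15.04 CPM and then 16.8, 17.4 and 19.1, had all 3 libraries higher but was not called (log2 difference 0.31, SE 0.10, adjusted p = 0.156). Mthfd2 and Phgdh differed by 0.00 (SE 0.059) and -0.03 (SE 0.23). Atf4 (299 to 305 and 299 to 314 CPM), Atf6 (217 to 246 and 222 to 232), Xbp1 (80.2 to 86.0 and 80.4 to 85.1) and Ern1 (115 to 121 and 119 to 120) overlapped between the viruses. Ddit3 (27.1 to 28.8 and 23.6 to 28.0 CPM), Ppp1r15a (83.2 to 92.0 and 76.5 to 80.8), Trib3 (15.6 to 15.9 and 16.1 to 17.1), Chac1 (8.16 to 11.8 and 7.45 to 10.2) and Ddit4 (0.983 to 1.63 and 0.866 to 1.78) were not called either. Of 89 further pathway genes tested 0 were called by edgeR, against 1.43% of all genes tested. The 9 fibroblast and mesothelial markers summed to 91.4 to 112 CPM with the control virus and 50.3 to 57.4 with Smim30, with 6 of 6 tested members lower, and Msln at 0 with Smim30. The part of these cells in the chaperone and Gdf15 differences was not tested.

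In IC-21 cells the share of members called with the siRNA was near that of all genes, 2 of 45 (4.44%) against 3.48% of 13576 genes (2.39% higher and 1.09% lower). The 2 genes were Slc7a5 and Slc3a2. Slc7a5 (LAT1) carries large neutral amino acids such as leucine, and Slc3a2 (CD98 heavy chain) brings it to the cell surface. Slc7a5 rose by 1.20-fold and Slc3a2 by 1.09-fold in siSmim30 against siCtrl. With edgeR 0 of 14 chaperones, 0 of 6 ERAD genes and 0 of 6 regulators were called, with 2, 1 and 0 of them at an unadjusted p under 0.05. Hspa5 was called higher by limma-voom (adjusted p = 0.0201), and Dnajb11 lower by edgeR without a composition factor. The median log2 difference was 0.055 over 19 ATF4 targets, 0.014 over chaperones and -0.0023 over all genes.

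Slc7a5 was at 228, 199 and 196 CPM with siCtrl and 249.9, 239.5 and 246 with siSmim30, without overlap (log2 difference 0.26, SE 0.042, adjusted p = 2.45e-05). Slc3a2 was at 1056, 1014 and 997 CPM and then 1113, 1055 and 1130, and the groups overlapped, with siSmim30 replicate 2 just under siCtrl replicate 1 (log2 difference 0.12, SE 0.030, adjusted p = 0.00792). The Slc3a2 call was lost without siCtrl replicate 2 or 3 and without siSmim30 replicate 1 or 3, and in a single fit of all 18 libraries (highest adjusted p 0.102). In Mut against WT these genes had log2 differences of 0.20 (adjusted p = 0.367) and -0.04 (adjusted p = 0.767).

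No other member was called by edgeR with its usual scaling under the siRNA. Asns was at 126 to 135 CPM with siCtrl and 119 to 127 with siSmim30, a log2 difference of -0.08 (adjusted p = 0.423), and Trib3 at 237 to 261 and 242 to 254. Atf4 had 740 to 784 and 746 to 788 CPM, Ddit3 44.1 to 52.8 and 40.6 to 48.2, Ppp1r15a 280.1 to 308 and 266 to 303, and Ddit4 9.49 to 10.9 and 9.07 to 14.2. Xbp1 (131 to 145 and 131 to 151), Atf6 (218 to 264 and 228 to 240), Ern1 (181 to 202 and 180 to 189), Hspa5 (1297 to 1353 and 1342 to 1401), Hsp90b1 (752 to 803 and 751 to 773) and Calr (405 to 426 and 410 to 427) were not called by edgeR. Chac1, Phgdh and Vldlr had 0 counts in all 6 libraries and could not be tested. Where 2.39% of all genes tested were higher and 1.09% lower, 2 of 89 further pathway genes tested were higher and 4 lower. They were the oxidase Ero1l (0.16, adjusted p = 0.0168) and Atf3 (0.15, adjusted p = 0.0276), and in the other direction the translocon-associated subunit Ssr2 (-0.32, adjusted p = 8.09e-07), the signal peptidase subunit Spcs1 (-0.20, adjusted p = 0.00606), the ERAD lectin Os9 (-0.17, adjusted p = 0.0182) and the glucosidase Ganab (-0.11, adjusted p = 0.0382).

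The mutation effect and the siRNA effect were compared directly by an interaction term over the 12 libraries of both comparisons. Of 47 members tested, 4 had a higher and 1 a lower difference with the mutation than with the siRNA, 10.6% of them against 2.51% of 14804 genes (1.25% higher and 1.26% lower). Asns differed by 0.67 on the log2 scale (SE 0.11, adjusted p = 3.76e-05), Psat1 by 0.57 (SE 0.10, adjusted p = 0.000332), Mthfd2 by 0.49 (SE 0.075, adjusted p = 2.51e-05) and Gdf15 by -0.60 (SE 0.090, adjusted p = 1.8e-05). Dnajb11, a co-chaperone of BiP, differed by 0.28 (adjusted p = 0.045), although neither comparison called it, and it lost that call in 13 of 21 other settings. For Phgdh and Chac1 the term has no meaning, since IC-21 held no counts of them. Mutation against siRNA is here also primary cells against a line, and the part of each cannot be told apart.

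**Figure D3:**
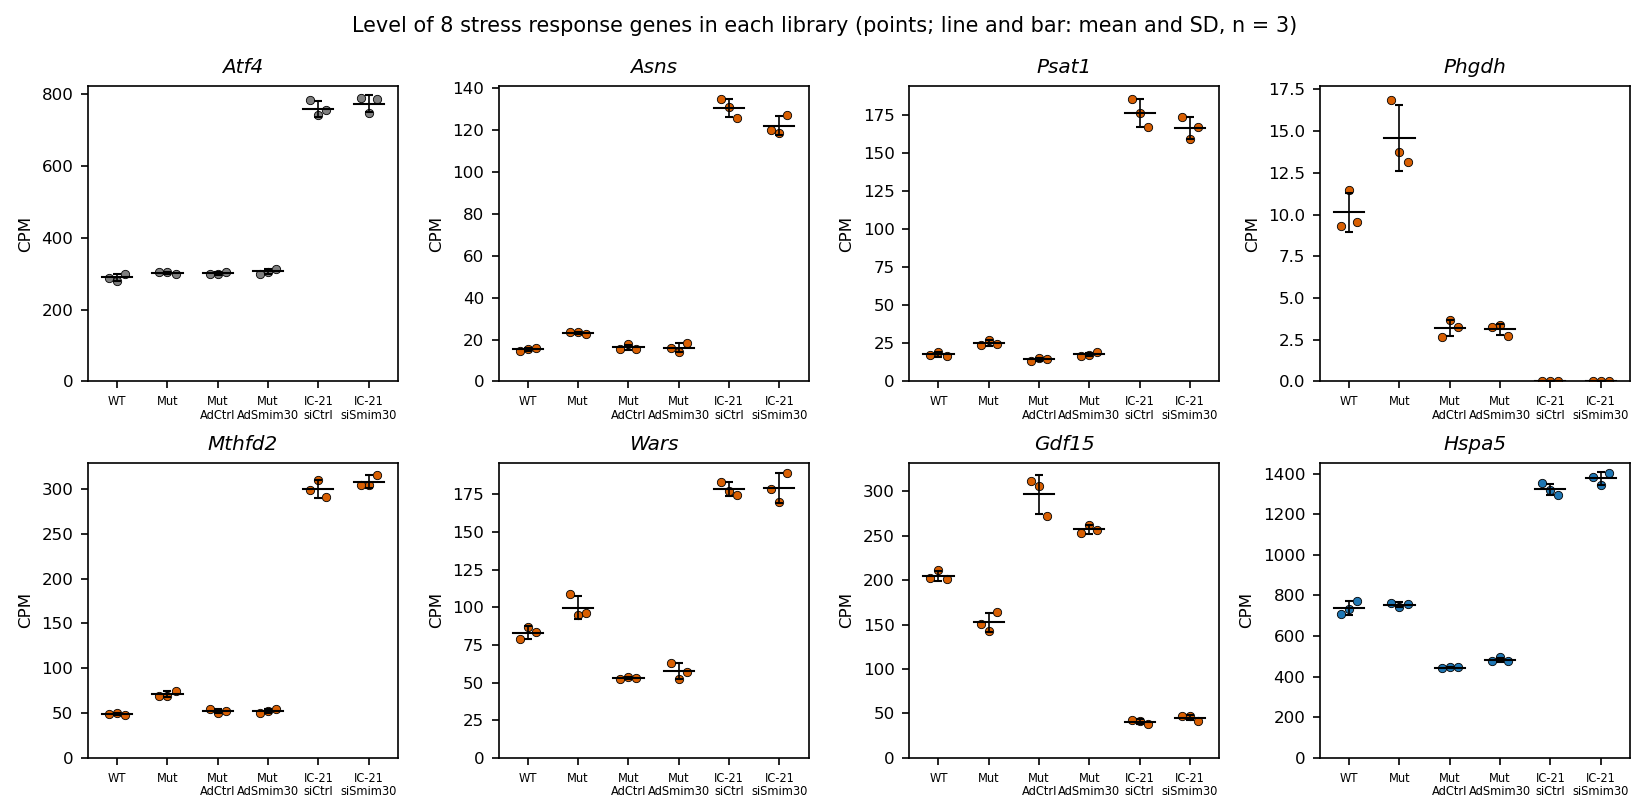
CPM of Atf4, Asns, Psat1, Phgdh, Mthfd2, Wars, Gdf15 and Hspa5 in each library (points) by group, with the mean (line) and SD (bar) of 3 libraries, on linear axes that start at 0. Asns, Psat1, Phgdh and Mthfd2 are higher in Mut than in WT, Gdf15 is lower, and Phgdh is at 0 in IC-21.

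Mut macrophages that had received the control virus differed from Mut macrophages without virus in most members. The difference is virus, longer culture and part of the series at once, and these cannot be told apart. Of 46 members tested 10 were higher and 29 lower in Mut AdCtrl, 84.8% against 53.6% of the 12798 genes tested (27.1% higher and 26.5% lower). Among the chaperones, 13 of 14 fell, with a median log2 difference of -0.71 against -0.0009 over all genes, and Dnajb9, a BiP co-chaperone known as an XBP1 target, was the exception (0.05, adjusted p = 0.621). ERAD genes were mixed, 3 higher and 2 lower (median 0.0087), as were the regulators, 3 higher and 2 lower. ATF4 targets were mostly lower, 12 of 20 against 4 higher (median -0.30).

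Hspa5 fell from 742 to 764 CPM in Mut to 443 to 447 with the control virus, a log2 difference of -0.80 (SE 0.038, adjusted p = 1.12e-17). Hsp90b1 fell from 478 to 517 CPM to 303 to 309 (log2 difference -0.73), and Calr from 862 to 921 to 550.1 to 570.2 (log2 difference -0.69). Manf, a small secreted ER protein, had the lowest chaperone value, with 65.3, 73.9 and 75.6 CPM in Mut and 33.8, 28.9 and 33.4 in Mut AdCtrl (log2 difference -1.20, SE 0.075, adjusted p = 7.69e-15). All of these groups stood apart. The 7 chaperone genes with an ERSE match had log2 differences of -0.90 to -0.38 (median -0.73), and the 5 with a window and no match -0.74 to 0.05 (median -0.34), given as a description with no test. The same split gave medians of -0.001 and 0.093 in Mut against WT and 0.080 and 0.12 with the Smim30 virus. With the siRNA they were 0.030 and -0.044, and in IC-21 siCtrl against WT -0.16 and -0.028. In Mut against WT, the medians of ATF4 targets were 0.19 with a CARE match and 0.20 without.

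The sensors and their factors moved in different directions. Atf6 had 86.8, 79.4 and 90.9 CPM in Mut and 217, 227 and 246 in Mut AdCtrl, the highest rise of any called member (log2 difference 1.39, SE 0.057, adjusted p = 2.2e-18). Ddit3 had 12.2, 14.7 and 11.6 CPM and then 28.8, 27.1 and 28.2 (log2 difference 1.10, SE 0.11, adjusted p = 1.92e-10). Ern1 was higher by 0.45 (adjusted p = 2.42e-08), and Xbp1 lower, from 131 to 144 CPM to 80.2 to 86.0 (log2 difference -0.77, adjusted p = 1.64e-13). Ppp1r15a was lower (log2 difference -0.40, adjusted p = 2.74e-07), while Atf4, at 299.7 to 304 and 299 to 305 CPM, was not called (log2 difference -0.04, adjusted p = 0.422). Atf6 RNA therefore rose while 13 of 14 chaperone genes fell.

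Among ATF4 targets, Phgdh had 16.9, 13.7 and 13.1 CPM in Mut and 2.69, 3.67 and 3.24 in Mut AdCtrl, 4.65-fold lower (log2 difference -2.22, SE 0.17, adjusted p = 2.07e-12). Ddit4 had 3.15, 2.99 and 3.59 CPM and then 1.63, 1.35 and 0.983 (log2 difference -1.32, SE 0.30, adjusted p = 0.000459), and Slc7a5 18.9, 21.9 and 25.1 and then 11.6, 11.7 and 11.01 (log2 difference -0.99, SE 0.12, adjusted p = 1.9e-08). Asns fell by 0.55 on the log2 scale (adjusted p = 3.4e-05). Gdf15 went up, from 151, 143 and 164 CPM to 312, 306 and 272 (log2 difference 0.92, SE 0.056, adjusted p = 1.38e-12), and Nupr1, a stress-induced chromatin protein, from 14.1, 19.0 and 17.9 to 27.9, 28.7 and 25.9 (log2 difference 0.65, SE 0.10, adjusted p = 2.85e-06). Trib3 (12.2 to 17.1 and 15.6 to 15.9 CPM) and Chac1 (6.54 to 8.90 and 8.16 to 11.8) were not called, except Chac1 without Mut AdCtrl replicate 3 (adjusted p 0.0464). In the further pathway lists 15 of 90 tested genes were higher and 47 lower, where 27.1% of all genes tested were higher and 26.5% lower. In these lists 12 of 18 translocation genes were lower, and Slc7a11 fell from a mean of 2447 to 146 CPM (log2 difference -4.10, adjusted p = 2.29e-34). Fibroblast and mesothelial markers summed to 205 to 242 CPM in Mut and 91.4 to 112 in Mut AdCtrl, and large peritoneal macrophage markers to 166 to 183 and 56.4 to 57.4. Plasma cell markers summed to 125 to 127 CPM in Mut and 270.0 to 281 in Mut AdCtrl, with Mzb1 and Tnfrsf17 at 0 in both groups. Dendritic cell markers summed to 22.8 to 29.4 and 6.59 to 6.84 CPM, with Flt3 at 0 in Mut AdCtrl. Of the tested markers, 6 of 6 fibroblast and mesothelial ones were lower, 2 of 3 dendritic ones lower, 1 of 5 large peritoneal macrophage ones higher and 2 lower, and 1 of 2 plasma cell ones higher and 1 lower. The part of these cells in the chaperone, Xbp1 and ATF4 target differences was not tested.

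**Figure D4:**
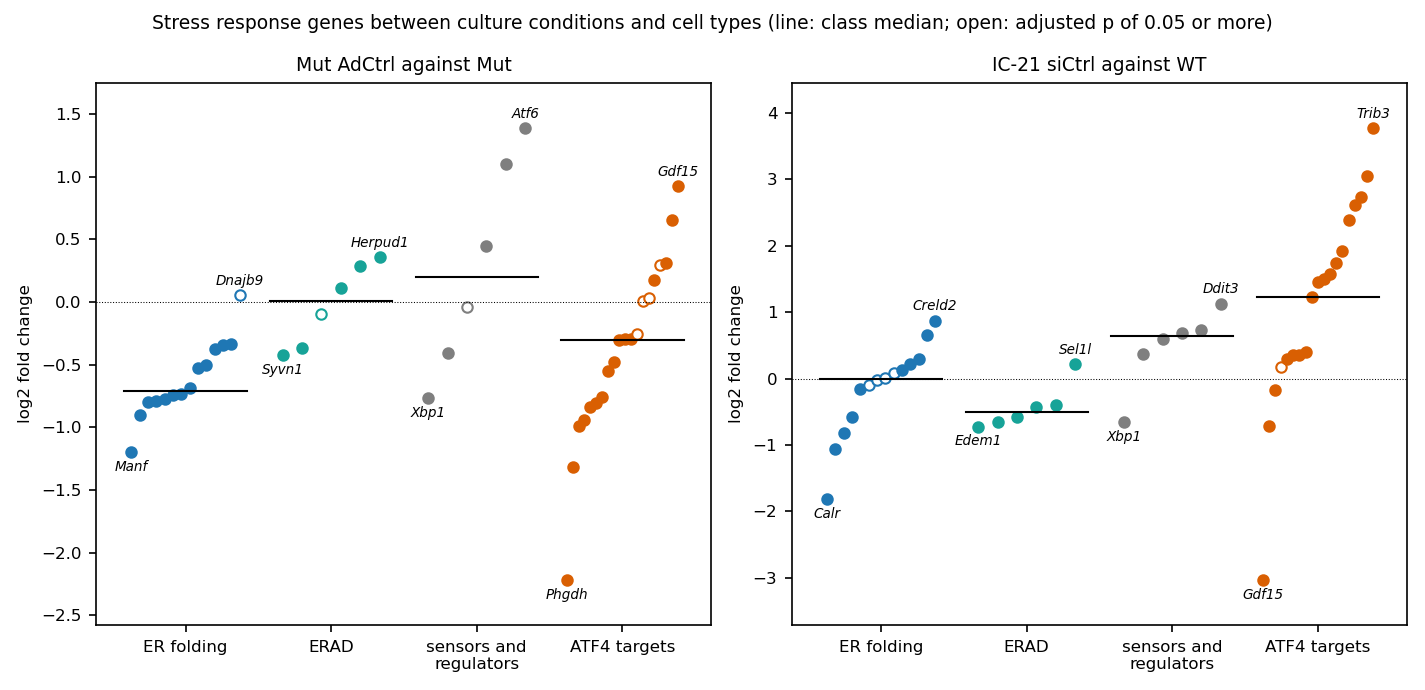
Log2 fold change of each tested member by class for Mut AdCtrl against Mut (left) and IC-21 siCtrl against WT (right, Phgdh and Chac1 left out of the points because IC-21 held no counts), with the class median as a line and open points for adjusted p of 0.05 or more. On the left 13 of 14 chaperones lie below 0 and are filled, and on the right the ATF4 targets have a median of 1.22.

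Between IC-21 cells and wild-type peritoneal macrophages, both under LPS, most ATF4 targets were higher in the line. The pair differs in cell type, transfection and part of the series, and these cannot be told apart. Of 47 members tested 26 were higher and 16 lower in IC-21 siCtrl, 89.4% against 80.3% of 14066 genes (40.1% higher and 40.2% lower), so most genes of any kind differed. ATF4 targets were 15 higher and 5 lower, with a median log2 difference of 1.22 against 0.011 over all genes. The median was the same with Phgdh and Chac1 put at their bounds, as it had to be, since both lie below it either way. Chaperones were 5 higher and 5 lower (median -0.014), and ERAD genes 1 higher and 5 lower (median -0.50). The direction of the ER genes depends on the scaling: without a composition factor all log2 differences here are 0.71 higher, and then 37 members were higher and 5 lower, with 15 of 20 chaperone and ERAD genes higher and 2 lower, and ATF4 targets 17 higher and 3 lower.

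Trib3 had 9.66, 11.6 and 12.1 CPM in WT and 261, 246 and 237 in IC-21 siCtrl, the highest fold among members higher in IC-21 (13.6-fold, log2 difference 3.77, SE 0.074, adjusted p = 1.62e-39). Shmt2, the mitochondrial enzyme that splits serine for one-carbon units, had 21.97, 22.4 and 22.4 CPM and then 314, 295 and 289 (log2 difference 3.04, SE 0.060). Slc7a5 had 18.5, 19.1 and 19.9 CPM and then 228, 199 and 196 (log2 difference 2.73, SE 0.070), while its partner Slc3a2 had 682 to 724 and 997 to 1056 CPM (log2 difference -0.18, adjusted p = 0.000381, a sign that the scaling above would turn). Psat1 (17.3, 19.2 and 16.5 CPM, then 185, 176 and 167) and Asns (14.5, 15.5 and 15.7, then 135, 131 and 126) differed by 2.62 and 2.39 on the log2 scale. In each of these genes except Slc3a2 the IC-21 libraries stood several fold above every WT library.

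Phgdh and Chac1 ran against the class. Phgdh, the first enzyme of serine synthesis, had 293 counts over the 3 WT libraries and 0 over the 3 IC-21 siCtrl libraries, whose 3-count limit over the group is 0.109 CPM, so it was at least 92.8-fold higher in WT. IC-21 thus held high Psat1 and Psph (1.91 to 4.22 CPM in WT and 15.2 to 18.3 in IC-21) with no Phgdh counts. Chac1 had 197 counts in WT and 0 in IC-21 siCtrl, at least 61.7-fold higher in WT by the same limit. Gdf15 had 202, 211 and 201 CPM in WT and 42.9, 41.5 and 38.2 in IC-21 siCtrl (log2 difference -3.03, SE 0.056, adjusted p = 1.9e-40). Trib3, Chac1 and Asns are often used side by side as readouts of ATF4, and here they did not share a direction between the cells.

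Among the regulators, Atf4 had 289, 279 and 299.6 CPM in WT and 784, 740 and 754 in IC-21 siCtrl (log2 difference 0.69, SE 0.044, adjusted p = 4.97e-19). Ddit3 (12.8 to 13.5 and 44.1 to 52.8 CPM, log2 difference 1.13), Atf6 (88.2 to 90.5 and 218 to 264, 0.73), Ppp1r15a (114 to 128 and 280.1 to 308, 0.59) and Ern1 (87.2 to 98.6 and 181 to 202, 0.37) were higher. The ATF4 target Ddit4 was higher too (2.34 to 3.21 and 9.49 to 10.9 CPM, log2 difference 1.22). Xbp1, at 127 to 137 and 131 to 145 CPM, was lower by the fit (log2 difference -0.65, adjusted p = 7.08e-16) and not without the composition factor (log2 difference 0.05, adjusted p = 0.306). Calr had 861, 881 and 919 CPM in WT and 406, 405 and 426 in IC-21 siCtrl, the lowest value among the chaperones (log2 difference -1.81, SE 0.046, adjusted p = 5.95e-35). Hspa5, at 709 to 773 and 1297 to 1353 CPM, differed by 0.14 (adjusted p = 0.00571, lost without WT replicate 1 or 2, highest adjusted p 0.166), and Hsp90b1, at 460 to 498 and 752 to 803, by 0.00 (adjusted p = 0.99), and both were higher without the composition factor. Markers of fibroblasts summed to 227 to 253 CPM in WT and 0.116 to 0.292 in IC-21 siCtrl, and those of large peritoneal macrophages to 272 to 281 and 13.9 to 18.7, with Gata6, Timd4 and Alox15 at 0. Their part in these differences was not tested. Of 90 further pathway genes tested 38 were higher and 37 lower, where 40.1% of all genes tested were higher and 40.2% lower. By list, 13 of 19 further ATF4 targets were higher and 12 of 17 further ERAD genes lower. The median over the further ERAD genes was -0.39. Without the composition factor all log2 differences here are 0.71 higher, so the direction of these ERAD genes depends on the scaling too.

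The balance of the classes was also put into a single value per library, the mean log2(CPM + 0.5) of the 22 ATF4 targets minus that of the 20 chaperone and ERAD genes, given with no test. It was -2.49 ± 0.065 (SD, n = 3) in WT and -2.30 ± 0.018 in Mut, with no overlap (highest WT library -2.41, lowest Mut library -2.32). It was -2.19 ± 0.073 in Mut AdCtrl and -2.27 ± 0.029 in Mut AdSmim30, where the groups overlapped. In IC-21 it was -1.80 ± 0.013 with siCtrl and -1.74 ± 0.0097 with siSmim30. Between Mut and Mut AdCtrl both classes were lower with the virus, the ER genes from 7.18 to 6.78 and the ATF4 targets from 4.89 to 4.59. Between WT and Mut the ER genes stood at 7.19 and 7.18 and the ATF4 targets at 4.71 and 4.89, so the shift lay on the ATF4 side.

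**Figure D5:**
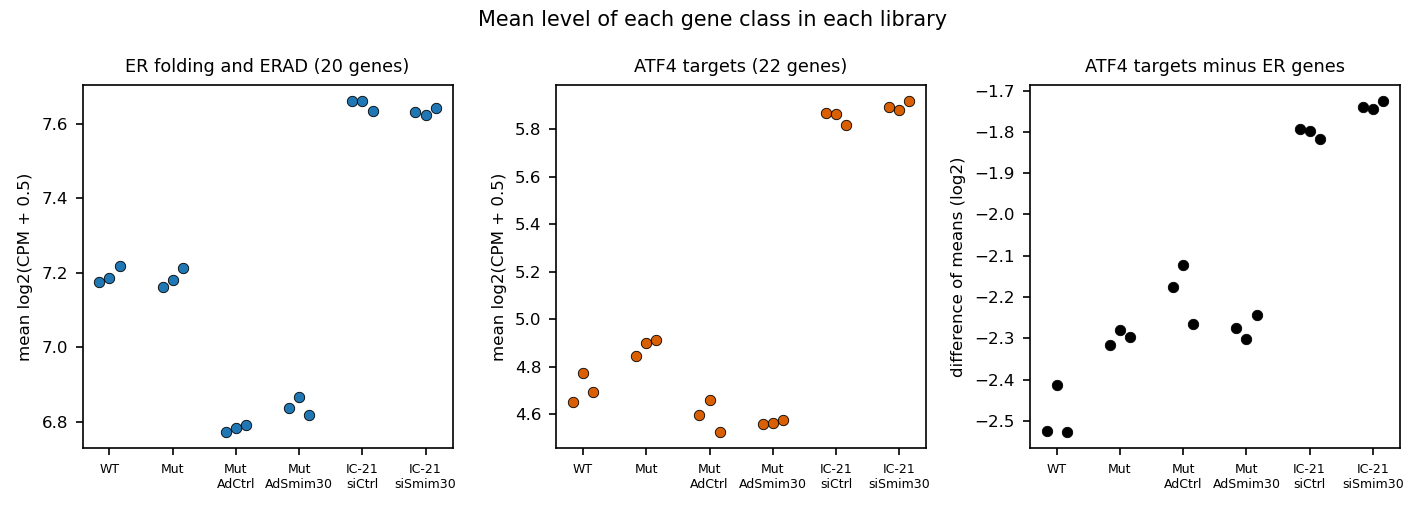
Mean log2(CPM + 0.5) of the 20 chaperone and ERAD genes (left), of the 22 ATF4 targets (middle) and their difference (right) in each library (points) by group. The difference is lowest in WT, at -2.53 to -2.41, and highest in IC-21 siSmim30, at -1.74 to -1.73.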

How the data were processed

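For every gene the authors deposited a raw count, the number of read pairs assigned to its exons by featureCounts 2.0.3 (reverse strand, GENCODE M25, GRCm38), per the file headers. The submitters' processing notes also name fastp, FastQC, HISAT2 and DESeq2. Symbols came from GENCODE by identifier, for 55141 of 55401 genes. The gene list, its classes, the further lists and the tests were chosen with earlier results of these data known. edgeR 4.0.16 (R 4.3.3) was fitted to the 6 libraries of each comparison (filterByExpr, TMM scaling, robust quasi-likelihood test, Benjamini-Hochberg adjustment over all genes tested, threshold 0.05), and the interaction to 12 libraries. CPM used library totals, which held no mitochondrial counts and 0.195 to 2.49% of ribosomal RNA genes. Replicates differed by more than counting noise (chi-square per gene 1.67 to 5.24). Genes given in full were the leading chaperones, the regulators, 4 ATF4 targets, called members by adjusted p, and the 4 highest and 4 lowest called members where most genes differed. Other genes (Dnajb9, Hyou1, Psph, Eif2ak3, Eif2ak4, and genes called in 1 comparison and shown in another) were named after their values were seen. Promoter windows were those of RefSeq. Ddit3 had 2 identifiers, of which the second had no counts. Alternatives were RLE scaling, no composition factor, other filters, DESeq2 1.42.0, limma-voom (limma 3.58.1), a fit of all libraries, a replicate block, and leaving out rRNA genes or each library.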

Additional observations from a re-analysis of the deposited data

Results flagged for a closer look

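For 5 genes the difference between Mut and WT was not the same as that between siSmim30 and siCtrl, by the interaction term of the edgeR fit over 12 libraries. Gdf15 differed by -0.602 on the log2 scale (adjusted p = 1.8e-05), being lower in Mut by 0.43 (log2 difference -0.43) and 0.17 higher, not called, with the siRNA. Asns differed by 0.674 (adjusted p = 3.76e-05), Psat1 by 0.574 (adjusted p = 0.000332) and Mthfd2 by 0.486 (adjusted p = 2.51e-05), each called in Mut and not with the siRNA, where their log2 differences were -0.08, -0.06 and 0.05. Dnajb11 differed by 0.284 (adjusted p = 0.045), with 0.11 for the mutation and -0.17 for the siRNA, neither of them called. Cell type, kind of Smim30 change and part of the series coincide in this contrast and cannot be told apart.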

How the results depend on the processing

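The mutation calls of Asns, Psat1, Mthfd2 and Gdf15 held in every setting run, and the count of members called was 5 to 9. Fitting all 18 libraries at once moved the genes called to 1198 for Mut against WT, 87 for the Smim30 virus and 263 for the siRNA, with 1 member called in each of the last 2. DESeq2 called 68 genes for the virus and 291 for the siRNA. Leaving out each library gave 469 to 957 genes (lowest without Mut replicate 2) and 5 to 7 members for the mutation, 66 to 453 genes (453 and 82 without the third and the first Mut AdCtrl library, 106 and 66 without the second and the third Mut AdSmim30 library) and 2 to 4 members for the virus (lowest without Mut AdSmim30 replicate 3), 309 to 422 genes (lowest without siCtrl replicate 2) and 1 to 2 members for the siRNA, and 267 to 571 genes (highest without Mut replicate 3) and 4 to 5 members for the interaction. Without a composition factor Xbp1 in IC-21 siCtrl against WT had a log2 difference of 0.0545. Whether same-numbered replicates were paired is not given, and correlations of 3 libraries per group cannot settle it. In no comparison did all 3 pairs correlate above 0.1, but with the viruses each library correlated best with its own number. With the replicate block, 782 genes and 6 members were called for the mutation, 253 and 5 for the virus, 546 and 2 for the siRNA, 6688 and 39 for the control virus, 11191 and 42 for IC-21 against WT, and 415 and 5 for the interaction. The mean difference between ATF4 targets and ER genes was lowest in WT and highest in IC-21 siSmim30 also with RLE scaling, without members under 10 CPM, and, chosen after the data were seen, without members at 0 in a group, although the difference between IC-21 siCtrl and WT grew from 0.69 to 1.30 and 1.33 in the last 2. At these depths Ddit4, Psph, Phgdh and Chac1 rest on few counts. The cause of these changes was not tested.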
